A study of Saccharomyces cerevisiae with 3 samples.

Results

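The genes described here encode enzymes that build amino acids in Saccharomyces cerevisiae, budding yeast, together with the transcription factor genes GCN4 and LEU3. They were chosen by symbol as genes of the Gcn4 type outside sulfur metabolism, and all 59 of 59 were measured, out of 5539 genes on the array. Each had 2 spots, which were averaged on every array. The study compared a strain labelled YAP1 mutant, a yap1 deletion per the series title, with the wild type. Both strains had been exposed to trivalent arsenic, As(III), at 1.0 mM for 1 h, and no unexposed culture was analysed here. Total RNA of the mutant, labelled with Cy5, was hybridised directly against that of the wild type, labelled with Cy3, on 3 arrays, replicates 1 to 3. The dyes were not swapped, so dye and genotype cannot be told apart. The strain background, its marker genes and whether the replicates were separate cultures are not given in the labels, so the p-values cover array-to-array spread alone, and that spread may be technical.

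Amino acid synthesis in yeast is under general amino acid control. When amino acids run short, the kinase Gcn2 slows general translation, the GCN4 mRNA is translated more, and the bZIP protein Gcn4 switches on genes of nearly every synthesis pathway at once. Yap1 is also a bZIP protein, best known for turning on genes against oxidants, drugs and metalloids. GCN4 is controlled chiefly in translation, so its mRNA level is not a measure of Gcn4 activity.

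All values below are log2 ratios of mutant over wild type after the ratio's trend with signal was removed from each array by loess. The direction is called likely, since the table does not state it. It rests on the order of the titles, the dyes and the lower YAP1 ratio. YAP1 had log2 ratios of -0.30, -1.21 and -1.04 on replicates 1 to 3, all below 0. Its recovered signals were 1562, 1099 and 844 in the mutant channel and 3747, 5551 and 3964 in the wild-type channel, so the mutant channel was dimmer but not empty. The mean log2 ratio of YAP1 was -0.85 ± 0.19 (SE, n = 3), which did not pass (limma, adjusted p = 0.0779). It passed in 8 of 16 alternative settings. Among them were the deposited values without centring (-1.94) and loess with the median of each print block also removed (-1.05, limma, adjusted p = 0.0217). A print block is here a run of 272 consecutive spots, read off the spot order. A gene was called changed at an adjusted p under 0.05 in limma's test over all genes. The arrays measure a transcript's share of the RNA of a whole culture, and fewer cells with the transcript cannot be told apart from less of it per cell.

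Most amino acid synthesis genes did not pass the test, and the 2 that did were lower in the mutant: ASN1, an asparagine synthetase gene, and LYS21, a homocitrate synthase gene of lysine synthesis. They made up 3.39% of the 59 genes, beside 1.64% of all genes called lower. By limma 0 of the 59 were called higher, beside 0.343% of all genes. At an unadjusted p under 0.05 there were 12 lower and 3 higher genes among the 59. That is 25.4% of them, against 18.0% of all genes. The median log2 ratio of the 59 genes was -0.05, close to -0.01 for all genes. On the single arrays the medians of the 59 were -0.07, -0.02 and -0.15. Of the 59 genes 19 were below 0 on all 3 arrays (32.2%, against 23.0% of all genes) and 8 were above 0 on all 3 (13.6%, against 19.6%). The genes varied between arrays about as much as other genes: the median SD over the 3 arrays was 0.19 for the 59 genes and 0.20 for all genes.

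**Figure D1:**
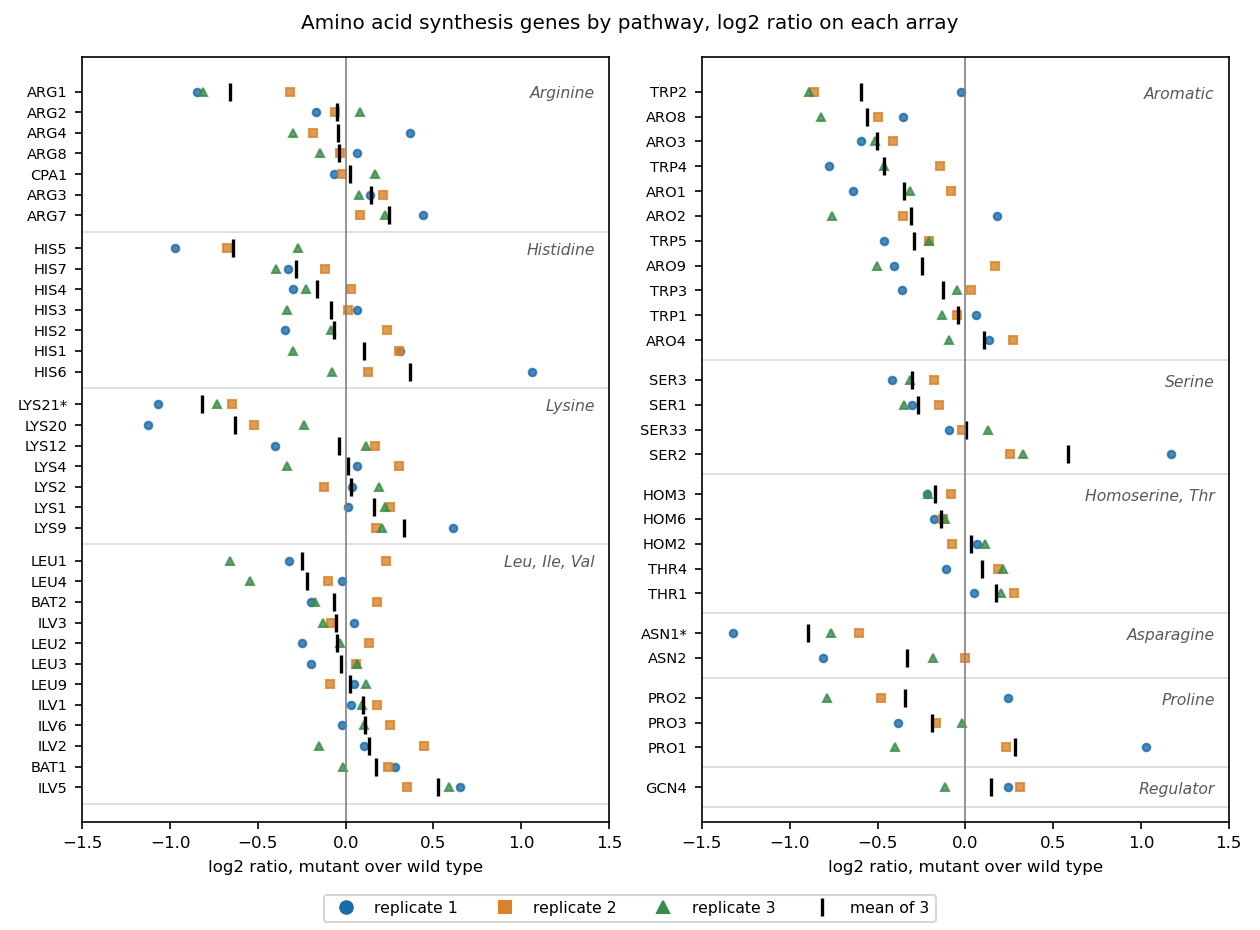
Log2 ratio of mutant over wild type (x axis) for the 59 amino acid synthesis genes, grouped by pathway; the symbols are the 3 arrays, the black bars their means, and a star marks a gene called by limma. ASN1 and LYS21 carry the stars, and 49 of the 59 means lie within 0.5 of 0.

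ASN1 makes asparagine from aspartate with glutamine as the nitrogen donor. Its log2 ratios were -1.32, -0.61 and -0.76 on replicates 1 to 3. All 3 arrays were below 0 and replicate 1 was the lowest. The mean was -0.90 ± 0.16 (SE, n = 3), or 1.86-fold higher in the wild type (limma, adjusted p = 0.0400). The signals recovered from the deposited ratios were 320 in the mutant channel and 1233 in the wild-type channel on replicate 1, 1000 and 3093 on replicate 2, and 669 and 2131 on replicate 3. The mutant channel was the dimmer one each time, but so it was for the median spot (547 against 859 on replicate 1, 869 against 1587 on replicate 2 and 695 against 1015 on replicate 3). On replicate 1 the mutant signal of ASN1 was close to the dim end of its channel, whose 5th percentile was 314. With normexp background correction before loess the mean was -1.70, and over 16 alternative settings it ranged from -1.75 to -0.68. The -1.75 is that of the deposited values without centring, where the median of all genes was -0.66. The call was lost without replicate 2 (-1.04), with a loess curve in each print block (-0.84), with ordinary variances and with a test against a 1.2-fold change, and adjusted p ranged from 1.46e-09 to 0.532.

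ASN2 encodes the other asparagine synthetase. It had log2 ratios of -0.81, -0.00 and -0.18 and a mean of -0.33 ± 0.17, which did not pass (limma, adjusted p = 0.364). ASN2 stood above ASN1 on every array, by 0.51, 0.60 and 0.58, with a mean difference of 0.56 ± 0.05 (SD, n = 3) in log2 ratio. The difference was larger than its spread, but with 3 arrays an exact two-sided sign-flip permutation test cannot go below p = 0.25. With median centring in place of loess ASN2 was called lower (-0.74) and the difference was 0.37. The sequences on the array were not used here, and paralogs as alike as these may have bound each other's transcripts.

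In lysine synthesis the lowest ratios were those of the first step. LYS20 and LYS21 encode homocitrate synthases, which carry out the first, feedback-inhibited step. LYS21 had log2 ratios of -1.07, -0.65 and -0.73, all 3 well below 0. Its mean was -0.82 ± 0.13 (SE, n = 3), or 1.76-fold higher in the wild type (limma, adjusted p = 0.0259). Its recovered signals were 660 and 2313 (mutant and wild type) on replicate 1, 895 and 2774 on replicate 2, and 530 and 1231 on replicate 3. On replicate 3 the mutant signal was close to the dim end of its channel, whose 5th percentile was 513. With normexp its mean was -1.54, and over 16 alternatives adjusted p ranged from 1.34e-06 to 0.475. The call was lost without replicate 2 (-0.90), with ordinary variances and with the test against a 1.2-fold change, and kept in the other 13 alternatives. These 13 include the deposited values without centring, where 4191 of 5539 genes were called lower. The measured neighbours in the RefSeq order of assembly R64, CDC53 beside LYS21 and NOC4 beside ASN1, had means of -0.22 and 0.03 and did not pass. With median centring CDC53 was called lower (-0.71), as was LYS21 (-0.91). LYS20 had -1.13, -0.52 and -0.24, all 3 below 0 but wide apart. Its mean of -0.63 ± 0.18 did not pass (limma, adjusted p = 0.142), but it did with quantile normalization (-0.61), with median centring (-0.71) and without replicate 3 (-0.82). LYS21 minus LYS20 was 0.06, -0.13 and -0.49 on the 3 arrays, a mean of -0.19 ± 0.28 (SD) that did not exceed its spread.

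The 5 later lysine genes had means of -0.04 to 0.33 and none passed. LYS9, the glutamate-forming saccharopine dehydrogenase gene, had the highest mean of the pathway, 0.33, with 0.61 on replicate 1 and 0.17 and 0.20 on the others. With print-block medians removed it had -0.06. LYS1, the lysine-forming saccharopine dehydrogenase gene (0.16), LYS2, the aminoadipate reductase gene (0.03), LYS4, the homoaconitase gene (0.01), and LYS12, the homoisocitrate dehydrogenase gene (-0.04), lay near 0. The pathway's median was 0.01.

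**Figure D2:**
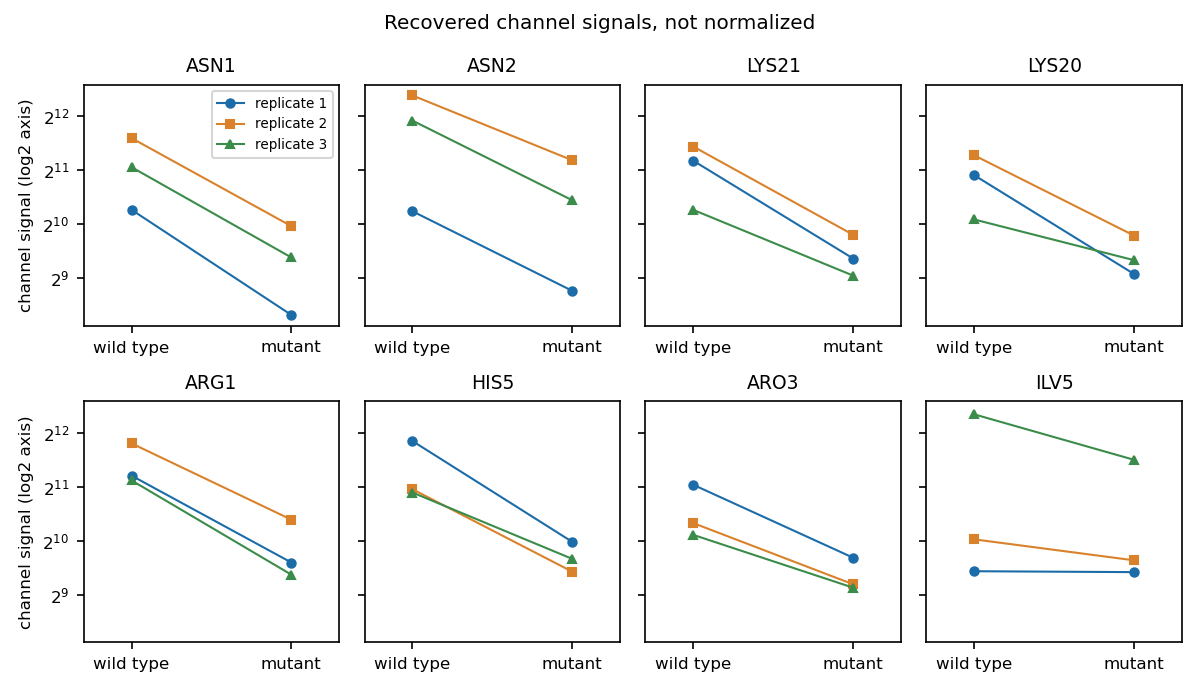
Recovered signal of the wild-type and the mutant channel (y axis, log2 scale, arbitrary scanner units) for 8 amino acid synthesis genes; lines join both channels of 1 array. All 8 genes, ILV5 included, are dimmer in the mutant channel on all 3 arrays, and so is the median spot of each array.

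In arginine synthesis ARG1, the argininosuccinate synthetase gene, was the lowest of 7. It had log2 ratios of -0.85, -0.32 and -0.81, each below 0, with replicate 2 the weakest. The mean of -0.66 ± 0.14 (SE, n = 3) did not pass (limma, adjusted p = 0.0779), but it did with quantile normalization (-0.65), with arrays scaled to one spread, with spots as technical replicates and with median centring (-0.95). The other 6 genes had means of -0.05 to 0.25 and none passed. ARG7, the ornithine acetyltransferase gene, was highest at 0.25. CPA1, which encodes the small subunit of carbamoyl phosphate synthetase, had 0.03, ARG2, of the first step, -0.05, ARG3, the ornithine carbamoyltransferase gene, 0.14, ARG4, the argininosuccinate lyase gene, -0.04 and ARG8, an aminotransferase gene, -0.04. The median of the pathway was -0.04. CPA1 turned to -0.46 with median centring and was then called lower.

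In histidine synthesis HIS5, the histidinol-phosphate aminotransferase gene, was lowest. It had -0.97, -0.68 and -0.27, all below 0. The mean of -0.64 ± 0.15 (SE, n = 3) did not pass (limma, adjusted p = 0.0995), whereas it did with normexp (-1.14), quantile normalization, leaving out replicate 3 and median centring (-0.90). HIS7, the amidotransferase-cyclase gene, was also below 0 on every array, with a mean of -0.28. HIS4 (-0.17), HIS3 (-0.09), HIS2 (-0.07) and HIS1, of the first step (0.10), had both signs over the arrays. HIS6, an isomerase gene, had 1.06, 0.12 and -0.08, and the mean of 0.37 was carried by replicate 1. The print block that held its spots had a median of 0.68 on that array. The pathway had a median of -0.09, and 0 of 7 were called by limma, with 1 past an unadjusted p under 0.05.

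Of the 11 aromatic genes 10 had a mean below 0 (90.9%, against 51.0% of all genes) and 6 were below 0 on all 3 arrays (54.5%, against 23.0%), with a median of -0.31. On the single arrays the median was -0.36, -0.14 and -0.46. By limma 0 of 11 were called, and 6, all lower, had an unadjusted p under 0.05 (54.5%, against 18.0% of all genes in either direction). With print-block medians removed the pathway's median was -0.33. ARO3 and ARO4 encode the DAHP synthases of the first step. ARO3 had -0.60, -0.41 and -0.51, close together, with a mean of -0.51 ± 0.12 (limma, adjusted p = 0.0891). With print-block medians removed ARO3 was called lower (-0.55, adjusted p = 0.0367). ARO4 had 0.13, 0.27 and -0.09, above ARO3 on every array by a mean of 0.61 ± 0.17 (SD, n = 3). That difference was larger than its spread, but was 0.26 with print-block medians removed and 0.35 with median centring.

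Further along the shared part of the aromatic pathway, ARO1, the gene of the pentafunctional enzyme, had a mean of -0.35, below 0 on all 3 arrays. ARO2, the chorismate synthase gene, had 0.18, -0.35 and -0.76, with both signs. In the tryptophan branch the 5 genes had means of -0.59 to -0.04. TRP2, an anthranilate synthase gene, had -0.03, -0.86 and -0.89. Replicates 2 and 3 were low and replicate 1 was near 0. The mean of -0.59 ± 0.19 did not pass (limma, adjusted p = 0.173), but TRP2 was called lower with print-block medians removed (-0.73, adjusted p = 0.0102) and without replicate 1. Its block had a median of 0.77 on replicate 1. TRP4 (-0.46) and TRP5, the tryptophan synthase gene (-0.29), were below 0 on all 3 arrays, and TRP3 (-0.12) and TRP1 (-0.04) were not.

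ARO8 and ARO9 encode aromatic aminotransferases, and ARO8 also serves lysine synthesis as an aminoadipate aminotransferase. ARO8 had -0.35, -0.50 and -0.82, all below 0, and a mean of -0.56 ± 0.13 (SE, n = 3) that did not pass (limma, adjusted p = 0.0982). ARO8 passed with median centring (-0.68), quantile normalization (-0.59) and spots as technical replicates. ARO9 had -0.41, 0.17 and -0.50 and a mean of -0.25. ARO9 minus ARO8 was 0.31 ± 0.36 (SD, n = 3), within its spread. With print-block medians removed the difference was 0.84, 0.42 and 0.19, above 0 on every array. Its mean was then 0.48 ± 0.33 (SD), larger than its spread. With median centring the difference was 0.43 ± 0.66 (SD), so its reading rests on the scaling.

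**Figure D3:**
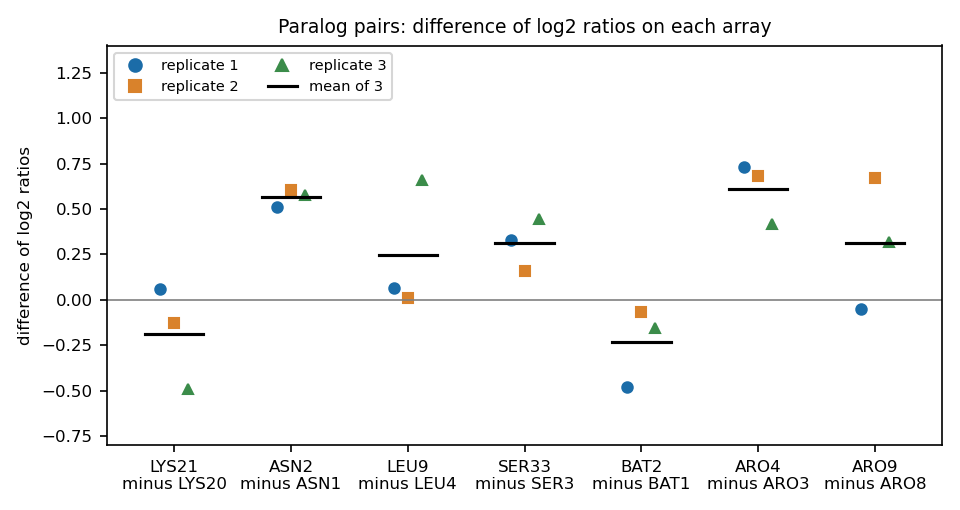
Difference of the log2 ratios of both genes of 7 paralog pairs on each array (y axis, symbols) with the mean of 3 (bar). ASN2 minus ASN1, SER33 minus SER3 and ARO4 minus ARO3 are above 0 on all 3 arrays with means of 0.56, 0.31 and 0.61. LEU9 minus LEU4 is also above 0 on all 3 (mean 0.24, 0.01 on replicate 2). BAT2 minus BAT1 is below 0 on all 3 (mean -0.23), and the other pairs have both signs. All values are after loess, and with print-block medians removed ARO9 minus ARO8 is above 0 on all 3.

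The branched-chain genes as a group lay at 0, with a median of -0.00 over 12 genes, and none was called. The one gene that stood out was ILV5, the acetohydroxyacid reductoisomerase gene, with 0.65, 0.35 and 0.59. All 3 arrays were above 0. The mean of 0.53 ± 0.12 (SE, n = 3) did not pass (limma, adjusted p = 0.0910), but ILV5 was called higher with print-block medians removed (0.58, adjusted p = 0.0419), with quantile normalization and with scaled arrays. Its size depended on the scaling, and on replicate 3 its sign did too. There its deposited ratio of -0.84 lay below the array median of -0.55, and the loess value rests on an estimated signal. On replicates 1 and 2 its deposited ratios of -0.02 and -0.39 lay above the array medians of -0.52 and -0.85. With median centring ILV5 had a mean of 0.22. Its recovered mutant signal was below the wild-type signal on each array, 685 and 693 on replicate 1, 797 and 1043 on replicate 2, and 2894 and 5185 on replicate 3. Its duplicate spots differed by 0.87 on replicate 3, the widest gap of any of the 59 genes, whose median gap was 0.07.

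The genes of the enzymes with an iron-sulfur cluster, LEU1, ILV3 and LYS4, are of interest because such clusters are targets of oxidants. Their means were -0.25, -0.05 and 0.01, each with both signs over the arrays, and none passed. LEU4 and LEU9, of the first step of leucine synthesis, had -0.22 and 0.02, and the difference of 0.24 ± 0.36 (SD) lay within its spread. The branched-chain aminotransferase genes BAT1 (0.17) and BAT2 (-0.06) differed by -0.23 ± 0.22 (SD). LEU3, which encodes the pathway's transcription factor, had -0.02, and ILV1, ILV2 and ILV6 had 0.10, 0.13 and 0.11. LEU2 (-0.05), TRP1, HIS3 and LYS2 are also widely used as marker genes in strain construction, and all 4 had means within 0.09 of 0.

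In serine synthesis SER3 was the lowest gene and SER2 the highest, and neither passed. SER3 and SER33 encode the phosphoglycerate dehydrogenases of the first step. SER3 had -0.42, -0.18 and -0.32, all below 0, with a mean of -0.31 (limma, adjusted p = 0.241), and SER33 had a mean of 0.01. SER33 minus SER3 was 0.31 ± 0.14 (SD, n = 3), above 0 on each array. SER1, the aminotransferase gene, had -0.27 and was below 0 on all 3 arrays. SER2, the phosphoserine phosphatase gene, had 1.17, 0.26 and 0.33, and replicate 1 lay far above the others. Its mean of 0.59 ± 0.19 was the highest of the 59 and did not pass (limma, adjusted p = 0.182). SER2 passed with quantile normalization (0.58) and without replicate 3 (0.71). SER2 lay in the same print block as HIS6, and with block medians removed it had 0.32.

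Of the genes that lead from aspartate to threonine none was called, and all 5 had means within 0.18 of 0. HOM3, the aspartate kinase gene (-0.17), and HOM6, the homoserine dehydrogenase gene (-0.14), were below 0 on all 3 arrays. THR1, the homoserine kinase gene (0.18), was above 0 on all 3, and HOM2 (0.03) and THR4 (0.10) had both signs. In proline synthesis PRO1, the glutamate kinase gene, had 1.03, 0.23 and -0.40, with a mean of 0.29 that was smaller than its SD over the arrays. PRO2 had 0.25, -0.48 and -0.79 and a mean of -0.34, and PRO3 had a mean of -0.19. Neither passed. GCN4 itself had 0.24, 0.31 and -0.12 and a mean of 0.15 ± 0.13 (SE), which did not pass (limma, adjusted p = 0.617).

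Across enzyme types the 2 called genes did not share a class. Of all genes 1.64% were called lower, 23.0% were below 0 on all 3 arrays, and 18.0% had an unadjusted p under 0.05. Of the 5 glutamine amidotransferase genes (ASN1, ASN2, CPA1, HIS7 and TRP3) 1 was called and 3 were below 0 on all 3 arrays, with a median of -0.28. The 7 aminotransferase genes had a median of -0.25 with 0 called by limma and 2, HIS5 and ARO8, lower at an unadjusted p under 0.05. The 8 genes of NADPH-dependent steps had a median of -0.05 with 0 called by limma, and 3 past an unadjusted p under 0.05. The 16 genes of first or feedback-inhibited steps had a median of -0.02 with 1 called, LYS21. Of these 16, 7 were below 0 on all 3 arrays and 1 was above 0 on all 3. At an unadjusted p under 0.05 there were 5, all lower. With print-block medians removed their median was -0.21 and 3 were called lower, beside 2.27% of all genes.

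The choice of scale decides how many of these genes are called. With each array only centred on its median, 24 of 59 (40.7%) were called lower, beside 17.8% of all genes, and 0 higher, beside 4.28% of all genes. In median centring the ratio keeps its trend with signal: the brightest 10% of spots had deposited medians of -1.11, -1.195 and -1.33 and the dimmest 10% medians of 0.08, -0.64 and -0.29. The amino acid synthesis genes were brighter than most, 46 of 59 above the median gene. The 24 genes called with median centring had a median log2 signal of 10.6, the other 35 one of 10.1, and all genes one of 9.82. With loess and print-block medians 4 were called lower (ARO3, ASN1, LYS21 and TRP2), which is 6.78% beside 2.27% of all genes, and 1 higher (ILV5), beside 0.361% of all genes. Across these scalings 50 of 59 means kept their sign between loess and block medians, and 44 of 59 between loess and median centring.

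**Figure D4:**
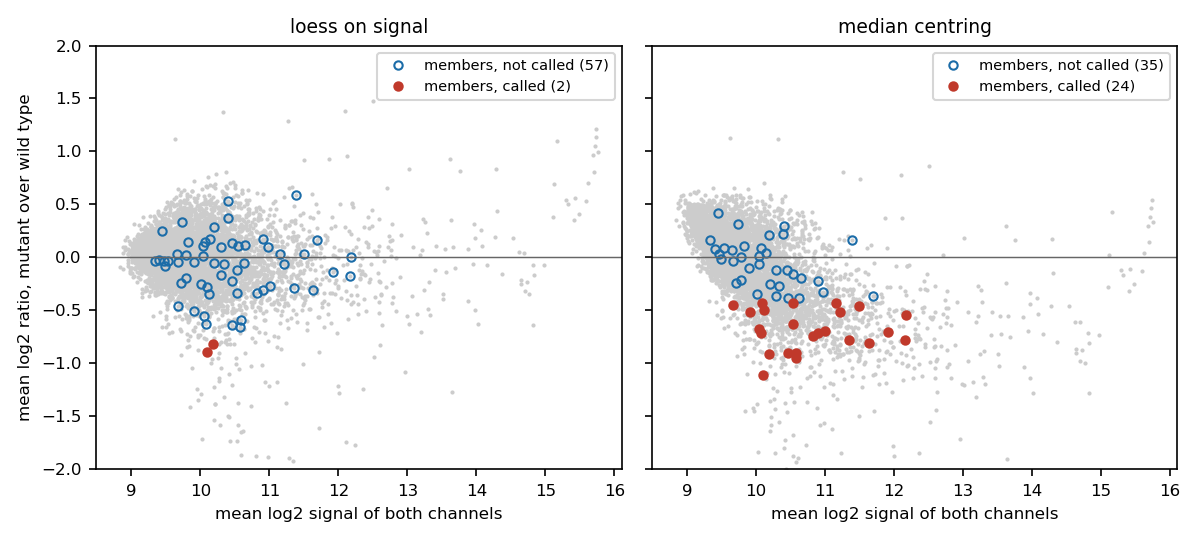
Mean log2 ratio (y axis) against mean log2 signal of both channels (x axis) after loess (left) and after median centring (right); grey points are all genes, circles the 59 amino acid synthesis genes, filled where called. The number called is 2 on the left and 24 on the right; 22 and 32 genes lie outside the plotted range.

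Genes beyond 0.5 in either direction numbered 8 below and 2 above among the 59, or 13.6% and 3.39%, against 4.35% and 2.40% of all genes. The 8 low genes, from ASN1, LYS21, ARG1, HIS5 and LYS20 to TRP2, ARO8 and ARO3, were below 0 under each of the 6 settings of the plot by setting. ILV5 and SER2 were above 0 under the same 6.

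**Figure D5:**
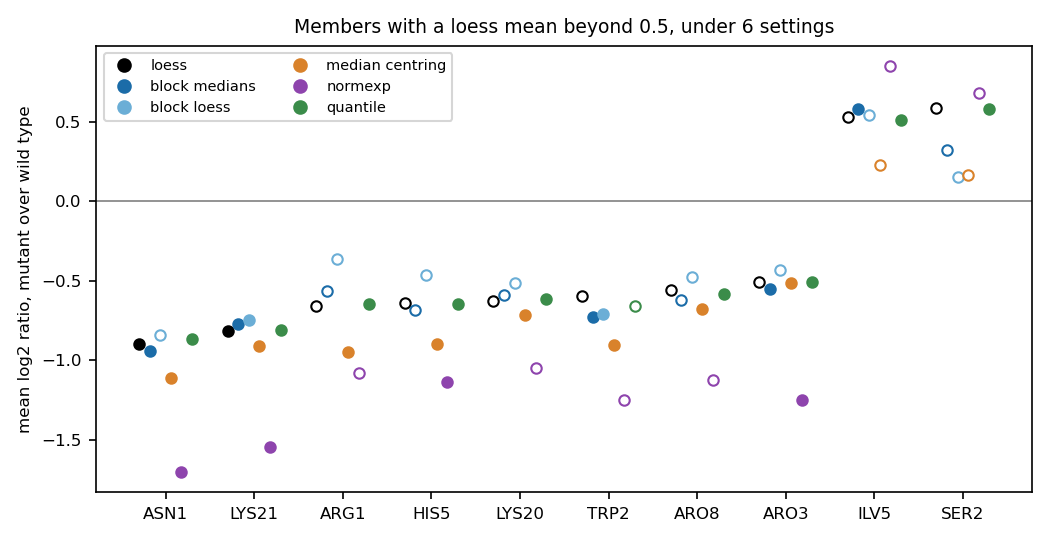
Mean log2 ratio (y axis) of the 10 amino acid synthesis genes beyond 0.5 after loess, under 6 settings (colours); filled circles passed limma's test and open ones did not. ASN1 reaches -1.70 and LYS21 -1.54 with normexp.

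The neighbouring parts of amino acid metabolism, from lists written beside the 59 genes, had no called gene after loess. Of all genes 18.0% had an unadjusted p under 0.05 and 19.6% were above 0 on all 3 arrays. With median centring 17.8% of all genes were called lower and 4.28% higher. Of the 17 genes of other synthesis steps and carriers 3 were then called lower and 1 higher. Of the 20 control genes 1 was called lower and 1 higher, and of the 14 permease genes 1 lower. No breakdown gene was called. Of 17 measured genes of other synthesis steps and carriers 0 were called by limma, with 6 at an unadjusted p under 0.05, and their median was -0.00. OAC1, the gene of a mitochondrial oxaloacetate carrier that also serves leucine synthesis, had -2.63, -1.60 and -0.37. All 3 arrays were below 0 and far apart. The mean of -1.53 ± 0.36 (SE, n = 3) did not pass (limma, adjusted p = 0.0928), but OAC1 passed with normexp (-2.61), quantile normalization (-1.45), median centring (-1.64), an intensity trend with robust variances, and without replicate 3 (-2.11). GLN1, the glutamine synthetase gene, had a mean of 0.45 and did not pass.

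Of 20 genes that control the pathways 0 were called, with 3 at an unadjusted p under 0.05 (15%, against 18.0% of all genes). GCN3, which encodes a subunit of the translation factor eIF2B, had 1.18, 0.20 and 0.78 and a mean of 0.72 (limma, adjusted p = 0.120), and ARO80, the activator gene of aromatic amino acid breakdown, had a mean of -0.48. Both passed with spots as technical replicates and with median centring, and GCN3 also with quantile normalization (0.68) and scaled arrays. GCN2 had -0.24. Of 11 breakdown genes 0 were called and 3 had an unadjusted p under 0.05 (27.3%, against 18.0% of all genes). Above 0 on all 3 arrays were 6 of them (54.5%, against 19.6% of all genes). The median of the 11 was 0.21 after loess and -0.02 with median centring, so its sign rests on the scaling. GCV1, of the glycine cleavage complex, had 0.50 and GDH2, the NAD-dependent glutamate dehydrogenase gene, 0.31. Of 14 permease genes 0 were called, with 2 at an unadjusted p under 0.05 (14.3%, against 18.0% of all genes). BAP3, a branched-chain amino acid permease gene, had -0.81, -0.39 and -0.40 with a mean of -0.54 (limma, adjusted p = 0.109). BAP3 passed with normexp (-1.06), quantile normalization (-0.53), median centring (-0.61), scaled arrays and spots as technical replicates. TAT2, the tryptophan permease gene, had 0.31.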

How the data were processed

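For each of 13056 spots on 3 two-colour arrays the authors deposited a log2 ratio. How the images were read, corrected or normalized is not given in the sources used here. On the linear scale 100% of the deposited values were quotients of whole numbers (relative tolerance 1e-13), so both channel signals were recovered up to a common factor. That factor was estimated from duplicate spots, the other arrays and the joint density of signals. On simulated signals 89.0%, 92.7% and 94.5% lay within 0.5 (log2) of the truth. The simulated signals were the recovered ones with noise added, so these shares cannot show how often the real factors are right. Array medians were -0.52, -0.85 and -0.55, so the values were not centred. A loess curve (span 0.3) was subtracted per array, and spots were averaged by gene. Names came from the platform annotation: 11138 spots had 1 gene, 1918 none and 0 several. All 59 members matched a RefSeq gene table of assembly R64, used for names and for the order of neighbouring genes. Genes were tested with limma 3.58.1 (R 4.3.3), two-sided against 0, with Benjamini-Hochberg adjustment over 5539 genes. SE is that of the moderated fit. On simulated arrays of 5539 genes the test recovered 70% of 50 genes changed 1.5-fold and 100% at 2-fold or more, and 18 of 203 calls were false. The simulated arrays had no print-block effect and took the recovered signals as exact, so both rates may differ in the real data. The number of arrays limits the precision.

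Named in full were GCN4, genes called under loess or median centring, paralog pairs, iron-sulfur enzymes, strain markers and the extremes of each pathway, and of each neighbouring list the called genes or the 2 of smallest p. GCN2 and the remaining members were named after their values were seen. Members and lists were chosen with earlier results of these data known. Print blocks of 272 spots were read off the spot order, which no label explains. Alternatives covered normalization, background, filters, replicates, variances and thresholds. Loess within each print block was added after seeing the data. Promoter motifs were not analysed here. Python 3.11.15, numpy 2.4.6, pandas 2.3.3, scipy 1.17.1 and matplotlib 3.10.9 were used.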

Additional observations from a re-analysis of the deposited data

How the results depend on the processing

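The count of amino acid synthesis genes called lower was 2 after loess. It was also 2, ASN1 and LYS21 again, with a loess span of 0.5, without the dimmest genes, and with an intensity trend and robust variances. With loess in each print block it was 2 as well, but LYS21 and TRP2, and 1 gene was shared. It was 4 with print-block medians, normexp or scaled arrays, 5 with spots as technical replicates, 7 with quantile normalization, 24 with median centring and 53 on the deposited scale, where the median of all genes lies at -0.66. It was 0 with ordinary variances and with limma's test against a 1.2-fold change (5 and 7 lower at an unadjusted p under 0.05), 0 to 4 when 1 replicate was left out (0 without replicate 2, with 11 lower unadjusted), 6 at an adjusted p under 0.1 and 0 under 0.01. The count called higher was 0, against 1 with print-block medians, 1 with scaled arrays, 2 with quantile normalization, 1 at an adjusted p under 0.1, and 0 to 1 with a replicate left out. Of all 5539 genes 91 were lower and 19 higher, against 984 and 237 with median centring. Lower were 126 with print-block medians, 154 with normexp, 191 with scaled arrays, 237 with quantile normalization and 4191 on the deposited scale. With spots as technical replicates 220 of 5510 were lower. With loess in each print block 79 were lower, with the 1.2-fold test 59 and with ordinary variances 0. Called higher were 20 with print-block medians, 66 with scaled arrays and 113 with quantile normalization. The median ratio of -0.05 became -0.32 with median centring, -0.96 on the deposited scale, -0.12 with normexp, and -0.14 to -0.055 with a replicate left out. With median centring ASN2 minus ASN1 was 0.37 and ARO4 minus ARO3 0.35. Turned below 0 and called were CPA1 (-0.46), SER33 (-0.54) and HOM2 (-0.43) with median centring, and on the deposited scale 17 of the 23 synthesis genes above 0 after loess: SER33 (-1.18), CPA1 (-1.10), HOM2 (-1.07), LYS1 (-1.002), ILV1 (-0.96), THR1 (-0.87), ILV6 (-0.84), ARO4 (-0.80), ILV2 (-0.76), THR4 (-0.76), LYS4 (-0.70), LEU9 (-0.64), HIS1 (-0.63), BAT1 (-0.60), LYS2 (-0.57), GCN4 (-0.56) and ARG3 (-0.54). Of the named neighbouring genes GDH2 (-0.81), GCV1 (-0.40) and TAT2 (-0.37) did so too. The deposited scale is uncentred by construction, and 4191 of all 5539 genes were called lower on it. The turns on that scale are thus not particular to these genes. For the other alternatives the cause was not tested. No paired analysis was possible because each array is itself a direct comparison and the arrays form 1 group. The planned share of promoters with Gcn4 and Yap1 motifs was not run.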

Other observations

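Some of the 59 genes lay in print blocks whose median on replicate 1 was above 0.5. After loess the print blocks accounted for 29.2%, 20.4% and 11.9% of the spread of spot ratios on replicates 1 to 3, and for 9.60%, 18.5% and 7.73% with median centring. The block that held HIS1, LYS9, ARO4 and PRO1 had a median of 0.74 on replicate 1, that of HIS6 and SER2 one of 0.68, that of ARO2, TRP2, SER1 and HOM3 one of 0.77, and that of ARG4, ARO8 and PRO2 one of 0.61. The ratios on replicate 1 were 0.31 for HIS1, 0.61 for LYS9, 0.13 for ARO4, 1.03 for PRO1, 1.06 for HIS6, 1.17 for SER2, 0.18 for ARO2, -0.03 for TRP2, -0.30 for SER1, -0.22 for HOM3, 0.36 for ARG4, -0.35 for ARO8 and 0.25 for PRO2, so genes of both signs lay in them. The blocks of ASN1 and LYS21 had medians of 0.09 and -0.21. Their part in the ratios was not tested beyond the values with block medians removed, which were -0.29 for HIS1, -0.06 for LYS9, -0.29 for ARO4, -0.11 for PRO1, 0.11 for HIS6, 0.32 for SER2, -0.45 for ARO2, -0.73 for TRP2, -0.40 for SER1, -0.31 for HOM3, -0.10 for ARG4, -0.62 for ARO8 and -0.40 for PRO2. The correlation of replicate 1 with replicates 2 and 3 over the 59 genes, which share arrays and scaling, was 0.55 and 0.43 after loess and 0.68 and 0.56 with block medians removed, and that of replicates 2 and 3 was 0.63 and 0.55.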
